A study of Mus musculus with 2 samples.

Results

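Retinoic acid is made inside cells from vitamin A, and 10 mouse genes that take up its precursor, make it, bind it, clear it or respond to it as receptors were followed here in embryonic lung. They are Stra6, Rdh10, Dhrs3, Aldh1a1, Aldh1a2, Aldh1a3, Crabp1, Cyp26b1, Rara and Rarb, taken by name from the probe sets annotated with exactly 1 gene symbol. All 10 were found among 19938 genes, each on 1 probe set. Lungs labelled Etv4;5 knockout were set against wild type lungs, both at E13.5, when airways are being formed by branching. Etv4 and Etv5 are ETS transcription factors of the distal lung epithelium that act downstream of fibroblast growth factor signalling. Each group was a pool of RNA from 3 samples hybridised once to an Affymetrix array, which leaves 2 arrays in all, no replicates and no test across samples. One label writes the knockout as CKO and another as DKO, and neither a Cre line, the deleted exons nor the sex of the embryos was given in the sources used here.

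Values were read as log2 from their range, 2.69 to 14.4 on the knockout array and 2.72 to 14.4 on the wild type array, with medians of 7.58 and 7.60. Every difference below is the log2 value in knockout minus that in wild type. Genes are called measured here if their higher value reached its own array's median, as held for 11045 genes. The lung factor Nkx2-1 read 10.70 in knockout and 10.58 in wild type, and the lung mesenchyme factor Tbx4 read 11.68 and 11.70, so both pools carried lung markers. Etv4 read 6.96 in knockout and 7.59 in wild type, below the limit for measured genes, and Etv5 read 11.28 and 11.51. The pools differed in sex-linked RNA as well: Xist, the RNA that silences an X chromosome, read 5.74 in knockout and 12.34 in wild type, and 3 Y-linked genes were higher in knockout by 0.53 to 0.64. The part of that imbalance in the results below was not tested. In a bulk sample, fewer cells of a type and less RNA per cell cannot be told apart.

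As background, retinol reaches cells on a plasma carrier and enters through the membrane receptor Stra6. Rdh10 oxidises it to retinaldehyde, Dhrs3 turns retinaldehyde back, and the Aldh1a enzymes oxidise retinaldehyde to retinoic acid. Crabp1 binds retinoic acid in the cytoplasm, Cyp26b1 degrades it, and Rara and Rarb are nuclear receptors that pair with RXR proteins on DNA. In the embryo, retinoic acid is required for the lung buds to form from the foregut.

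Of these genes, Stra6 stood furthest apart, Aldh1a1 was slightly higher in knockout, and the receptor gene Rarb read the same on both arrays. The sequences before the starts of these 3 genes show how they differ in receptor recognition letters. They come from RefSeq (GRCm38.p6) and cover the 250 bases before a gene's start, at chr14:16575477-16575726 on the minus strand for Rarb, chr9:58128838-58129087 on the plus strand for Stra6 and chr19:20601718-20601967 on the plus strand for Aldh1a1. Stra6 has 4 starts in the RefSeq promoter table and Aldh1a1 has 2. The most upstream start of Stra6 and the most downstream start of Aldh1a1 are shown, and the arrays do not tell which start was used. Capitals mark the 5-letter cores of receptor sites, GGTCA or GTTCA, on either strand.
Rarb: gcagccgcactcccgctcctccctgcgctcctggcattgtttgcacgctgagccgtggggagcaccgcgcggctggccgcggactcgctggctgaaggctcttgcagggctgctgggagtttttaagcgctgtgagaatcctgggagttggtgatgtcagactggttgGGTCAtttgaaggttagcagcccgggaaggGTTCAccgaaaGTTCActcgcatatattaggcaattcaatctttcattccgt
Stra6: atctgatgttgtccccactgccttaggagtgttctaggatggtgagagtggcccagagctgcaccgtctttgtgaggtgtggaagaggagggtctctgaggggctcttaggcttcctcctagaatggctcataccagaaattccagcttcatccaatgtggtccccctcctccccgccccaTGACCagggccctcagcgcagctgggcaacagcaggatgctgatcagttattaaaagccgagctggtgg
Aldh1a1: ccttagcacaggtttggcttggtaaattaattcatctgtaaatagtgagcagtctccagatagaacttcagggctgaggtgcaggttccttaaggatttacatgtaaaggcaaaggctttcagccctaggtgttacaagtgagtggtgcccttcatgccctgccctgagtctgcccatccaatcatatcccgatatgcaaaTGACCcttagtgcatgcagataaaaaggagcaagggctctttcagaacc
In Rarb, 2 cores stand in line as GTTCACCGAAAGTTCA, from 52 to 37 bases before the start. This is the direct repeat called DR5, the classical retinoic acid response element of this gene. Searched as GGTCA or GTTCA, any 6 letters, then GGTCA or GTTCA, on both strands, DR5 was found in 81 of 32851 RefSeq promoters of 300 bases (0.247%). Among the 17 promoters of 8 of the genes followed here it was found in that of Rarb only. Pairs of cores with 3 letters between them (DR2) or 2 letters (DR1) were found in 0 of these 17 promoters, against 0.399% and 0.402% of all promoters. Single cores are common, with at least 1 in 61.2% of all promoters and in 7 of these 17. Of such cores 1 lies in the stretch shown for Stra6 and 1 in that for Aldh1a1. The promoter at the other start of Aldh1a1 has no core, and not every start of Stra6 has a core. The ETS recognition words CCGGAAGT and CAGGAAGT, also read on both strands, occurred in 0 of the 17 promoters, against 3.89% and 3.33% of all promoters. Such matches describe these windows and say nothing about binding. The tables used here held no promoter for Rdh10 and Aldh1a3.

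**Figure D1:**
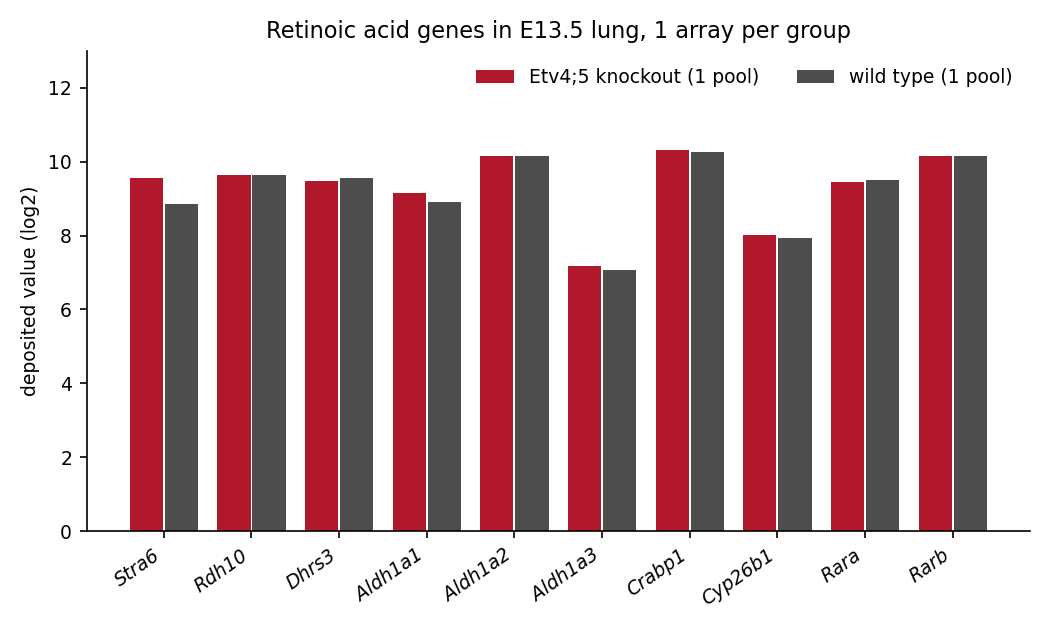
Deposited values (vertical axis, log2) of the 10 retinoic acid genes in the knockout pool (red, left bar) and the wild type pool (grey, right bar), 1 array each, so there are no error bars. Stra6 shows the widest gap, 9.56 against 8.86, and Aldh1a2 and Rarb show none.

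For uptake, Stra6, the receptor that brings retinol into cells, read 9.56 in knockout and 8.86 in wild type. The difference was 0.70, or 1.63-fold. This was the 12th highest difference of all 11045 measured genes. Among the 1628 other measured genes whose mean level lay within 0.25 of that of Stra6, 1 differed by as much in either direction and 0 were as high. Both of its values lay well above the array medians. The 5 measured genes among its 10 nearest neighbours on chromosome 9 differed by at most 0.09, the nearest downstream one, Islr, by 0.02.

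The enzymes between retinol and retinaldehyde read nearly alike in both pools. Rdh10, the main retinol dehydrogenase of the embryo, read 9.65 in knockout and 9.63 in wild type, a difference of 0.02. Dhrs3, which reduces retinaldehyde back to retinol and is induced by retinoic acid, read 9.49 in knockout and 9.56 in wild type, a difference of -0.07. Both differences lay well within the range of -0.22 to 0.20 that held the central 95% of measured genes.

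Of the 3 retinaldehyde dehydrogenases, 1 read higher in knockout, 1 read equal and 1 was too dim to count. Aldh1a1, known from airway epithelium, read 9.16 in knockout and 8.90 in wild type, a difference of 0.27. Among 1599 other measured genes of like level, 52 (3.25%) differed by at least as much in either direction and 21 were at least as high. Aldh1a2, the main synthetic enzyme of the early embryo and a mesothelial gene in lung, read 10.14 on both arrays, equal to the last deposited digit. Aldh1a3 read 7.17 in knockout and 7.08 in wild type and was not counted as measured, because both values lay below the array medians. Aldh1a1 has a close paralog in the mouse, Aldh1a7, and how far the probe sets of these 2 genes share signal was not tested.

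For binding and clearance, Crabp1, the cytoplasmic carrier, read 10.31 in knockout and 10.25 in wild type, a difference of 0.06. Cyp26b1, which degrades retinoic acid, read 8.01 in knockout and 7.95 in wild type, a difference of 0.07. Of the other measured genes of like level, 409 of 1289 differed by at least as much as Crabp1 and 562 of 1406 by at least as much as Cyp26b1. Neither gene therefore stood out from others of its brightness.

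The receptors also read alike. Rara, the broadly expressed receptor, read 9.46 in knockout and 9.51 in wild type, a difference of -0.05. Rarb, the receptor whose promoter holds the DR5 repeat shown above and which retinoic acid itself induces, read 10.15 on both arrays, again equal to the last digit. Exact equality was common in this table: 3016 of 11045 measured genes (27.3%) had it, against 2 of the 9 measured retinoic acid genes. No reason for it was given in the sources used here, so an equal pair cannot be taken as a finely resolved absence of change.

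**Figure D2:**
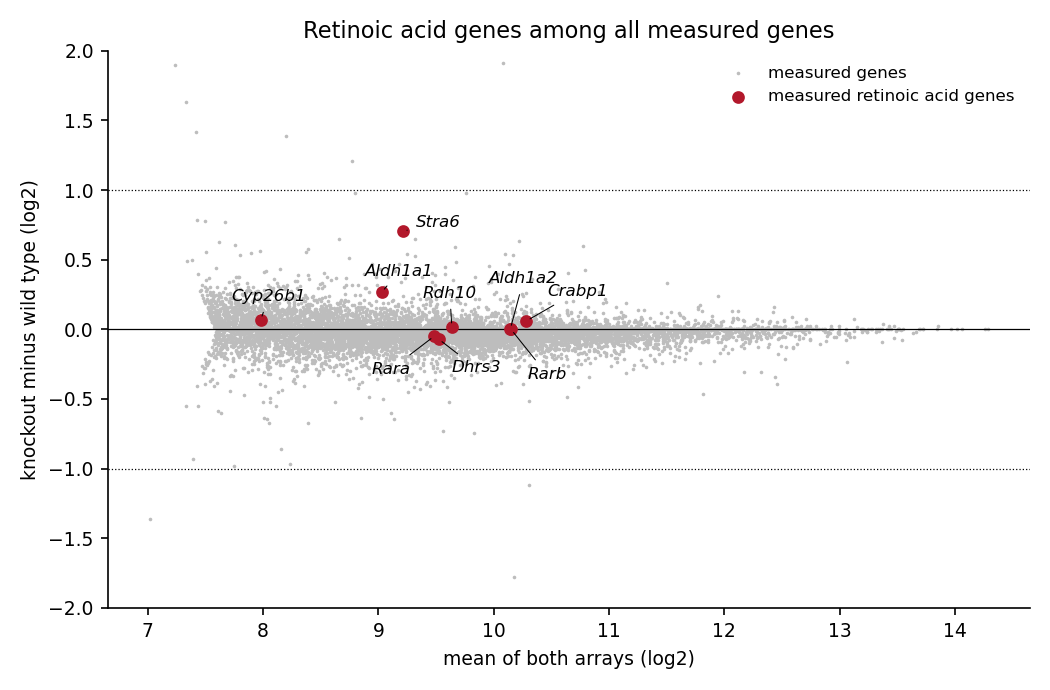
Each grey point is a measured gene, with the mean of both arrays (horizontal axis, log2) against the knockout minus wild type difference (vertical axis, log2, cut at -2 and 2, which leaves out Xist). Red points are the 9 measured retinoic acid genes and dotted lines mark 2-fold. Stra6 (0.70) lies at the upper edge of the cloud, Aldh1a1 (0.27) toward its upper side, and the other 7 lie between -0.07 and 0.07.

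Counted together, 9 of the 10 genes were measured, with 5 higher, 2 lower and 2 equal in knockout. None of the 9 was 2-fold apart, where 0.0905% of all measured genes were (10 of 11045). At 1.5-fold 1 gene was counted, Stra6, against 0.335% of measured genes, and at 1.2-fold 2 were, Stra6 and Aldh1a1, against 2.92%. Aldh1a1, at 0.266, lay just past that last threshold of 0.263, and the next gene by size, Dhrs3 at -0.07, lay far inside it. The median over the 9 genes was 0.02, beside 0.00 over all measured genes. Over all measured genes 2836 were higher and 5193 lower. With the array medians made equal, 6713 were higher and 4344 lower, as exact ties and many small negative differences turned positive. The 9 genes then split into 7 higher and 2 lower, because their 2 exact ties turned into small positive differences. Stra6 and Aldh1a1 kept their sizes, at 0.70 to 0.73 and 0.27 to 0.29 over all scalings tried, and signs of differences as small as 0.02 carry no direction.

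The rest of the pathway was described from lists ordered by role. Over 5 lists of carriers, other oxidoreductases, other binding and clearance genes, other receptors and coregulators, 51 of 55 listed symbols were matched and 29 were measured. Of these 29, 7 were higher, 10 lower and 12 equal, with a median of 0.00. At 1.2-fold 1 was higher and 1 lower. The higher one was Aldh1a7, an aldehyde dehydrogenase related to Aldh1a1, at 10.84 in knockout and 10.44 in wild type, a difference of 0.41. The lower one was Fabp5, a fatty acid binding protein that can also carry retinoic acid, at 9.39 in knockout and 9.80 in wild type, a difference of -0.41. A second probe set of Fabp5 gave -0.36. Fabp5 has processed copies in the mouse genome, so its signal may not come from 1 locus alone.

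Among 6 measured carrier and storage genes, 2 were higher, 2 lower and 2 equal. Lrat, which esterifies retinol for storage, read 7.87 in knockout and 7.63 in wild type, a difference of 0.24. Scarb1, a lipoprotein receptor that also takes up carotenoids, differed by -0.06, and Rbp4, the plasma carrier that delivers retinol to Stra6, by 0.04. Lrat and Stra6, which act together in retinol uptake, were both higher in the knockout pool, although Lrat lay close to the limit for measured genes and below 1.2-fold. Of 7 other measured oxidoreductases 1 was higher, 2 lower and 4 equal, with Dhrs4 at -0.11 after Aldh1a7. Crabp2, the carrier that hands retinoic acid to its receptors, differed by 0.07, while Cyp26a1 and Cyp26c1, the other degrading enzymes, were not measured.

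Of 4 other measured receptor genes 0 were higher, 2 lower and 2 equal. Rarg and Rxra were equal on both arrays, Rxrb differed by -0.02, and Ppard, which can be activated by retinoic acid carried on Fabp5, differed by -0.16. The 10 measured coregulators differed by -0.06 to 0.04, with 3 higher, 3 lower and 4 equal, a split that was 9 higher and 1 lower with equal array medians. The coactivators furthest from 0 were Med1 at -0.06 and Ncoa3 at 0.04.

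Genes known to respond to retinoic acid went both ways. Of 14 measured, 6 were higher, 8 lower and 0 equal, with a median of -0.02 (0.0013 with quantile scaling) and 0 past 1.2-fold in either direction. The orphan receptor gene Nr2f1 read 8.38 in knockout and 8.16 in wild type, a difference of 0.22. Tgm2, the transglutaminase gene induced by retinoic acid in many cells, read 9.73 in knockout and 9.90 in wild type, a difference of -0.17. Hox genes of this list were split, with Hoxa4 at 0.13, Hoxa5 at 0.03 and Hoxb1 at 0.01 against Hoxb4 at -0.15 and Hoxb5 at -0.10. Of 11 measured lung genes linked to retinoic acid in development, 1 was higher, 9 were lower and 1 was equal, with a median of -0.12. Lower were also 5193 of all 11045 measured genes, and 3110 of 5725 with the filter at the 75th percentile. Tbx4, Tbx5 and Foxf1 of these lung genes are counted again among the mesenchyme markers below. Wnt2, a mesenchymal ligand needed for lung specification, read 10.04 in knockout and 10.35 in wild type, a difference of -0.31. Tgfb1 and the receptor gene Tgfbr2, part of the signalling that retinoic acid restrains in the foregut, differed by -0.12 and -0.14. Shh differed by -0.41, Foxf1 by -0.40, Wnt2b by -0.32 and Fgf10 by 0.40.

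**Figure D3:**
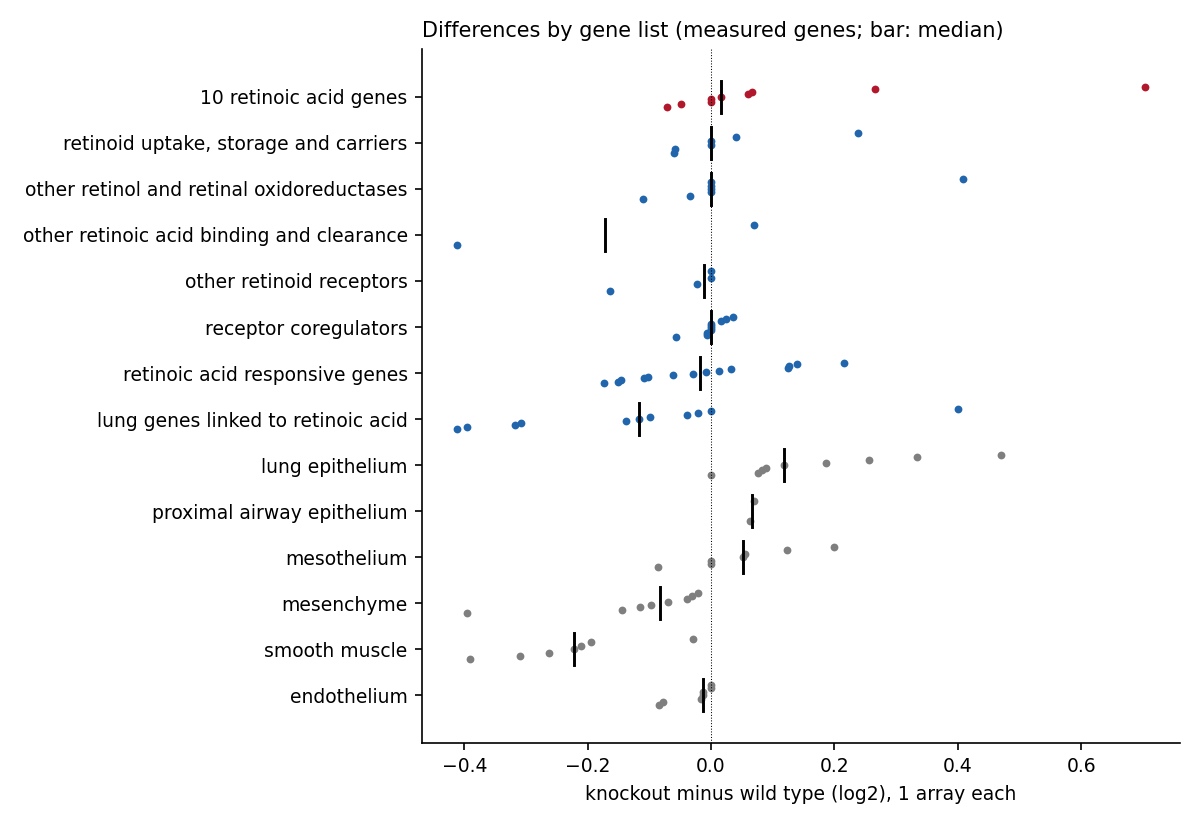
Knockout minus wild type differences (horizontal axis, log2) of measured genes, 1 point per gene, by list: the retinoic acid genes in red, other lists of the pathway in blue and cell type markers in grey, with a black bar at each median. Stra6 at 0.70 is the point furthest to the right, pathway medians lie near 0 apart from the sparsely measured binding list and the lung genes, and epithelial lists lie to the right of mesenchyme and smooth muscle.

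Cell type markers were set beside these values. Of all 11045 measured genes, 2836 were higher and 5193 lower. With the filter at the 75th percentile, 1112 of 5725 were higher and 3110 lower. All 9 listed markers of lung epithelium, a compartment known to hold Aldh1a1, were measured, with 8 higher and 1 equal, a median of 0.12 and Krt18 (0.47) and Krt8 (0.33) furthest apart. Their summed signal on the linear scale was 15602 in knockout and 13813 in wild type, a log2 ratio of 0.18. Of 7 proximal airway markers 2 were measured, Sox2 at 0.07 and Cyp2f2 at 0.06, while Scgb1a1, Scgb3a2, Foxj1, Trp63 and Krt5 lay below the array medians; the summed signal was 1111 in knockout and 1051 in wild type. Of 9 mesothelial markers, a cell type known for Aldh1a2, 7 were measured, with 4 higher, 1 lower and 2 equal, a median of 0.05, Bnc1 at 0.20 and Gpm6a at 0.12, and the summed signal was 4227 in knockout and 4164 in wild type. Wt1, a defining mesothelial factor, was equal on both arrays, as were Aldh1a2 and 27.3% of all measured genes.

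Mesenchyme markers were lower in 8 of 8 (median -0.08, Foxf1 at -0.40 and Tcf21 at -0.14), and smooth muscle markers in 7 of 7 (median -0.22, Myocd at -0.39 and Cnn1 at -0.31), with each of the 3 other scalings too. Lower were also 5193 of all 11045 measured genes, or 4344 of 11058 with equal array medians. Endothelial markers had no settled direction: 5 of 7 were lower and 2 equal (median -0.01, Pecam1 and Tek both at -0.08), but 5 were higher and 2 lower with equal array medians. Summed signals were 20951 in knockout and 23237 in wild type for mesenchyme, 15457 and 17064 for smooth muscle, and 12586 and 12815 for endothelium. Erythroid markers were lower in 4 of 4, or 3 of 4 with quantile scaling (median -0.24, Slc4a1 at -0.26, Hba-x at -0.25), leukocyte markers in 4 of 4 (median -0.13, Mrc1 at -0.17, Csf1r at -0.15) and cartilage markers in 2 of 3 with 1 equal (median -0.19, Cnmd at -0.41, Col2a1 at -0.19), and 0 of 3 matched neural markers were measured. The difference of 0.27 for Aldh1a1 lay above the epithelial median (0.12). Of the epithelial markers listed, only Krt18 and Krt8 (0.33) differed by more, and Elf3 came next at 0.26. The difference of Stra6 was larger than that of any epithelial marker listed. The part of these shifts in the retinoic acid genes was not tested.

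Aldh1a1 also stood beside other genes that were higher in knockout. In RefSeq gene order on chromosome 19, Anxa1, which encodes annexin A1, lies 2 genes before it and Aldh1a7 directly after it among the genes on the array. Anxa1 read 8.89 in knockout and 7.50 in wild type, a difference of 1.39, with the wild type value below the array median. Leaving out genes that were not measured, Anxa1, Aldh1a1 and Aldh1a7 formed a run of 3 neighbours that were each at least 1.2-fold higher. Of 10998 such runs of 3 measured neighbours in the genome, 2 were higher throughout and 0 lower throughout, and the other was the Y-linked Kdm5d, Eif2s3y and Uty. Anxa1 counts as measured only through its knockout value, the pool in which it is high, so it had to be higher to enter a run, and the count of runs supports nothing about this stretch. Aldh1a1 lies just past the threshold and shares close sequence with Aldh1a7, and how far their signals are independent was not tested. Beyond it the measured genes D030056L22Rik (0.01) and Zfand5 (-0.07) and 1110059E24Rik (0.00) read nearly alike in both pools. This comparison was chosen after the values were seen.

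**Figure D4:**
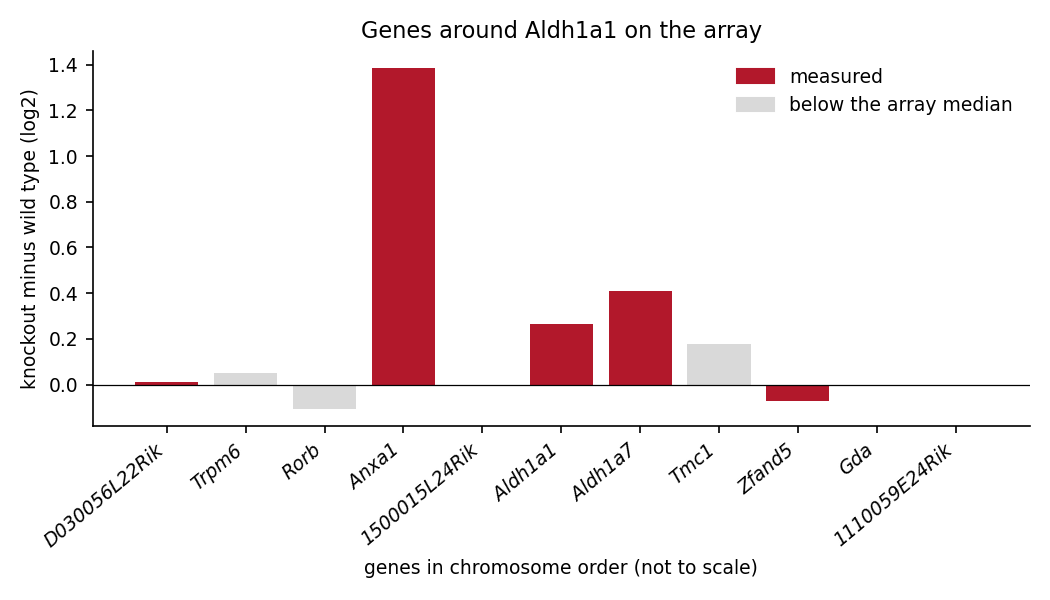
Knockout minus wild type differences (vertical axis, log2) of the 5 genes on either side of Aldh1a1, in chromosome order and not to scale, with measured genes in red and genes below the array median in grey; no bar means equal values. Anxa1 (1.39), Aldh1a1 (0.27) and Aldh1a7 (0.41) are higher in knockout, and the dim gene 1500015L24Rik between them is equal.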

How the data were processed

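Total RNA was prepared with a column kit, pooled from 3 samples per group and hybridised to Affymetrix arrays after biotin labelling, per the labels' protocols and the design text. A single value stands for each probe set in each of 2 columns. The values the authors deposited were taken to be log2 from their range; the log base, the summary method, the normalization and the genome build are not given in the sources used here. Of 35557 probe sets 21789 had 1 gene symbol, 1621 several and 12147 none in the platform annotation. The probe set with the highest mean represented a gene, and all 10 members were found in a RefSeq table (GRCm38.p6), used for names, gene order and promoters only.

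With 1 array per group no p-value, SD or test was computed, and the number of arrays limits the precision. Members are described beside all measured genes. The members and lists were chosen with earlier results of these data known. Named are every member, Etv4, Etv5, sex-linked genes, genes of the other pathway lists at least 1.2-fold apart or otherwise the 2 furthest apart, and the 2 furthest apart of each cell type list; others are named as members of a described role and were chosen after their values were seen. The scalings and the 2-fold count were tested on simulated arrays without exact ties. The lists, level windows, neighbour runs and promoter searches were not tested in this way. Alternatives were equal medians, quantile and loess scaling (span 0.3), the mean over probe sets, other filters on dim genes and thresholds of 1.5-fold and 1.2-fold. Scripts ran under Python 3.11.15 with pandas 2.3.3, numpy 2.4.6, statsmodels 0.14.6 and matplotlib 3.10.9.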

Additional observations from a re-analysis of the deposited data

How the results depend on the processing

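No paired analysis was possible because each group has 1 array, which also means that leaving out an array was not possible. The count of 0 retinoic acid genes 2-fold apart was 1 at 1.5-fold and 2 at 1.2-fold, which follows from the threshold. It stayed 0 under the 3 other scalings. It also stayed 0 with the mean over probe sets, no filter and the filter at the 75th percentile, but these could not raise it. Each member has 1 probe set, the stricter filter only removes members, and no filter adds only Aldh1a3, at 0.09. The 40 differences recomputed for single members each moved by less than 0.18, the 90th percentile of the gap between the differences of 2 probe sets of 1 gene (618 genes). A larger move was hardly possible. The probe set mean changes no member, and the 3 other scalings shifted the median of all measured genes by at most 0.02. The median over measured members lay between 0.00 with the stricter filter and 0.04 with quantile scaling. Of 35 recomputed list medians 1 moved by more than that gap: the binding and clearance list went to -0.41 with the stricter filter, which leaves Fabp5 alone of 2 genes, and to 0.0072 with no filter, which adds 2 dim genes, against -0.17 as reported. Over all genes the count of 10 at 2-fold was 5 with that filter. The count of 2 runs of higher neighbours was 10 at 1.1-fold, 1 at 1.3-fold and 0 at 1.5-fold, thresholds chosen after seeing the data, and at 1.3-fold Aldh1a1 no longer passes. Runs lower throughout numbered 14 at 1.1-fold, and 0 at 1.3-fold and at 1.5-fold. Counts of cell type markers under other scalings were also added after seeing the data. Genes below the array median, such as Aldh1a3 and Etv4, have no call here because of dim signal.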

Other observations

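The DR5 pair of cores lies in a RefSeq promoter of 16 measured genes, Rarb among them. Of these, 3 were higher, 5 lower and 8 equal in knockout, with a median of 0.00. Over all 11045 measured genes, 2836 were higher, 5193 lower and 3016 equal, and 2.92% were at least 1.2-fold apart. Of the DR5 genes 1 passed 1.2-fold, Tnfsf13b, which encodes the B cell survival factor BAFF, at 9.37 in knockout and 9.03 in wild type, a difference of 0.34. The lowest was Spg21 at -0.25, and Hbb-y, an embryonic globin gene, differed by -0.24. The set was formed from promoter letters alone, after the values of the retinoic acid genes were seen, and whether any of these repeats is used in lung was not tested.

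Of the pathway genes listed, 26 were matched but not measured. Of these, 13 were higher, 4 lower and 9 equal in knockout, with a median of 0.0027. Dim genes in general leaned higher too. With no filter 6653 of 19938 genes were higher and 6614 lower, against 2836 and 5193 of the 11045 measured. The widest differences among these 26 pathway genes, all on dim signal, went both ways. The retinol dehydrogenase gene Sdr16c5 read 4.50 in knockout and 4.17 in wild type (0.34). Rdh9, of the same enzyme class, read 6.16 in knockout and 6.42 in wild type (-0.26). Dkk1, a Wnt antagonist raised when retinoic acid is lacking in the foregut, read 7.44 in knockout and 7.17 in wild type (0.27).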
